A study of Mus musculus with 15 samples.

Results

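The clustered protocadherins were followed in mouse embryonic fibroblasts with and without the nuclear protein CIZ1. Members were the expression units of the deposited gene table in which at least 1 listed symbol is a Pcdha, Pcdhac, Pcdhb, Pcdhga, Pcdhgb or Pcdhgc gene. This rule, which uses names and no measured values, gave 21 of 65522 units, listing 56 clustered symbols. Of these units, 20 belonged to the beta cluster, and 18 of those listed a single gene. The remaining beta units joined neighbours, Pcdhb17 with Pcdhb18 and Pcdhb21 with Pcdhb22. The alpha and gamma clusters were not separated at all: 1 unit listed 39 symbols, of which 34 were clustered protocadherins (11 Pcdha genes, Pcdhac1 and Pcdhac2, 12 Pcdhga genes, 7 Pcdhgb genes, Pcdhgc3 and Pcdhgc5). No unit listed Pcdha10 or Pcdhgc4. So the beta cluster was described gene by gene, and alpha and gamma as a single value per sample.

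Poly(A) RNA was measured in 15 populations of fibroblasts from female C57BL/6 embryos at days 13 to 14 of gestation. The 6 groups were WT primary cells (CIZ1 +/+, 3 embryos), CIZ1 -/- primary cells (2), CIZ1 -/- primary cells with an inducible GFP-CIZ1 transgene and no inducer (2), the same transgenic cells given doxycycline at 5 to 10 µg/ml (2), WT culture-adapted lines (3) and CIZ1 -/- culture-adapted lines (3). CIZ1 null cells carry a gene trap in Ciz1, and GFP-CIZ1 is made from a responder transgene that needs a second, transactivator transgene. Primary means before passage 5. Adapted lines were passaged on until fast-growing cells took over, with emerging colonies pooled rather than cloned, and each came from the same embryo as a primary population (WT: E13.1, E13.8, E14.4; null: E14.2, E13.15, E13.17). The E13.17 embryo carried the transgene, and its untreated primary cells served as the third CIZ1 null primary sample. The paper lists the adapted E13.17 line with the transgene too. Neither the null primary samples of the comparisons nor the null adapted lines were therefore all of one genotype. By the published description, the untreated and the induced transgenic cells came from the same pair of embryos. Which induced sample (14 or 15) came from which embryo was not established here, so induction was compared without pairing.

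Clustered protocadherins are cell-surface adhesion proteins of the cadherin superfamily, best known from neurons, where each cell displays its own combination of isoforms and recognises cells bearing the same combination. Each Pcdha and Pcdhg transcript joins its own variable exon to constant exons that are shared by its cluster, while a Pcdhb gene is a stand-alone coding exon without a constant region. Nearly every variable exon has its own promoter, and promoter choice involves the insulator protein CTCF, cohesin, DNA methylation and the silencing factors SETDB1 and SMCHD1. The C-type genes (Pcdhac1, Pcdhac2, Pcdhgc3, Pcdhgc4, Pcdhgc5) are, in neurons, expressed in a more constitutive way.

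All members lay at chromosome 18:36930184-37841877 of GRCm38, which the files give as the locus of every beta unit as well, since the whole region was assembled together. In the GENCODE annotation of that build all were on the plus strand, ordered alpha (Pcdha1 starting at 36930184), beta (from Pcdhb1 at 37264938 to Pcdhb22, whose gene starts at 37517871) and gamma (Pcdhga1 at 37661793). In that annotation 15 of the 18 single-gene beta units had 1 exon. Beta genes are close paralogs, so reads can be shared between neighbours, and the beta values below are uncertain to that extent. The locus held 25 further units that are not members.

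The values are FPKM, fragments scaled to transcript length and library size. The smallest steps between low values gave each library's relative depth, set to 1 for WT primary E14.4. Primary samples 1 to 6 lay between 1 and 1.63, adapted lines between 0.541 and 1.19, and sample 13 at 0.483. A single fragment on a transcript of 3000 bases was worth 0.0172 to 0.0579 FPKM, so beta values of a few hundredths rest on a few fragments. Ciz1 fitted the labels: it was 19.05 to 25.0 FPKM in WT primary, 18.7 to 24.1 in WT adapted and 0.0546 to 0.724 in all untreated null samples, and 296 and 191 after doxycycline. The 9 fibroblast markers summed to 11320 to 12210 FPKM in primary samples 1 to 6 and 3556 to 7755 in adapted lines, and Thy1 was nearly absent from WT adapted E13.8 (0.1001 FPKM) and null adapted E13.17 (0.234 FPKM).

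The beta cluster was low in primary cells and several-fold higher in every adapted line. Summed over its 20 units it was 6.04 (E14.4), 5.37 (E13.1) and 5.11 FPKM (E13.8) in WT primary cells, and 6.64 (E14.2), 7.28 (E13.15) and 7.31 (E13.17) in null primary cells. In adapted WT lines it was 30.3 (E13.1), 15.8 (E13.8) and 14.4 (E14.4), and in adapted null lines 16.3 (E13.15), 38.2 (E14.2) and 31.1 (E13.17). The lowest adapted line thus lay above the highest primary sample, and the adapted lines differed among themselves far more than the primary samples did.

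The group means were 5.50 ± 0.482 (SD, n = 3) and 20.2 ± 8.81 (SD, n = 3) in WT primary and adapted cells, a 3.66-fold difference. In null cells they were 7.08 ± 0.377 (SD, n = 3) and 28.5 ± 11.2 (SD, n = 3), a 4.03-fold difference. Within an embryo the sum was 5.64-fold higher after adaptation for E13.1, 3.09 for E13.8 and 2.39 for E14.4 in WT cells. For null cells it was 2.24-fold for E13.15, 4.26 for E13.17 and 5.75 for E14.2. All 6 embryos went the same way, with no separation of the genotypes. Since these are bulk samples, more cells of a kind and more RNA per cell cannot be told apart.

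**Figure D1:**
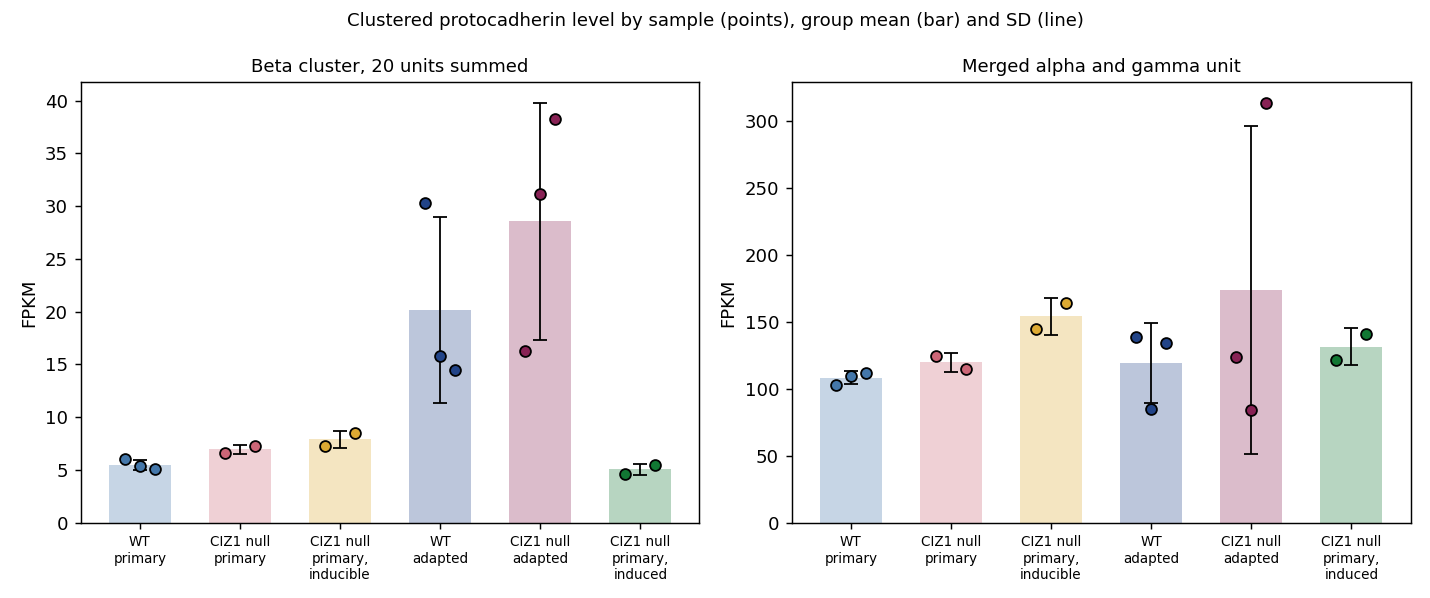
FPKM of the beta cluster, summed over 20 units (left), and of the merged alpha and gamma unit (right), in 15 samples by group; points are samples, bars are means and lines are the SD. The 6 adapted lines sit at 14.4 FPKM or above for beta, above all 9 primary samples, while the alpha and gamma values overlap, with CIZ1 null adapted E14.2 apart at 313 FPKM.

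The number of beta units that reached 1 FPKM was 1 or 2 in every primary sample, induced ones included, and 4 to 9 in adapted lines. Single-gene beta units summed to about 140 to 200 implied fragments (on the depth scale above, taking each transcript at its annotated length) in primary samples 1 to 6 and 300 to 967 in adapted lines, although 5 of the 6 adapted libraries were shallower than all of those primary libraries. Pcdhb1, the first gene of the cluster, was listed at 0 in all 15 samples. The other 19 units were above 0 somewhere, and for all 19 the mean over the 6 adapted lines exceeded that over primary samples 1 to 6. The ratio ran from 1.13 for Pcdhb6, which was at most 0.0783 FPKM in these samples, to 15.1 for Pcdhb9, with a median of 4.97, and 17 of 19 were at 2 or more.

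**Figure D2:**
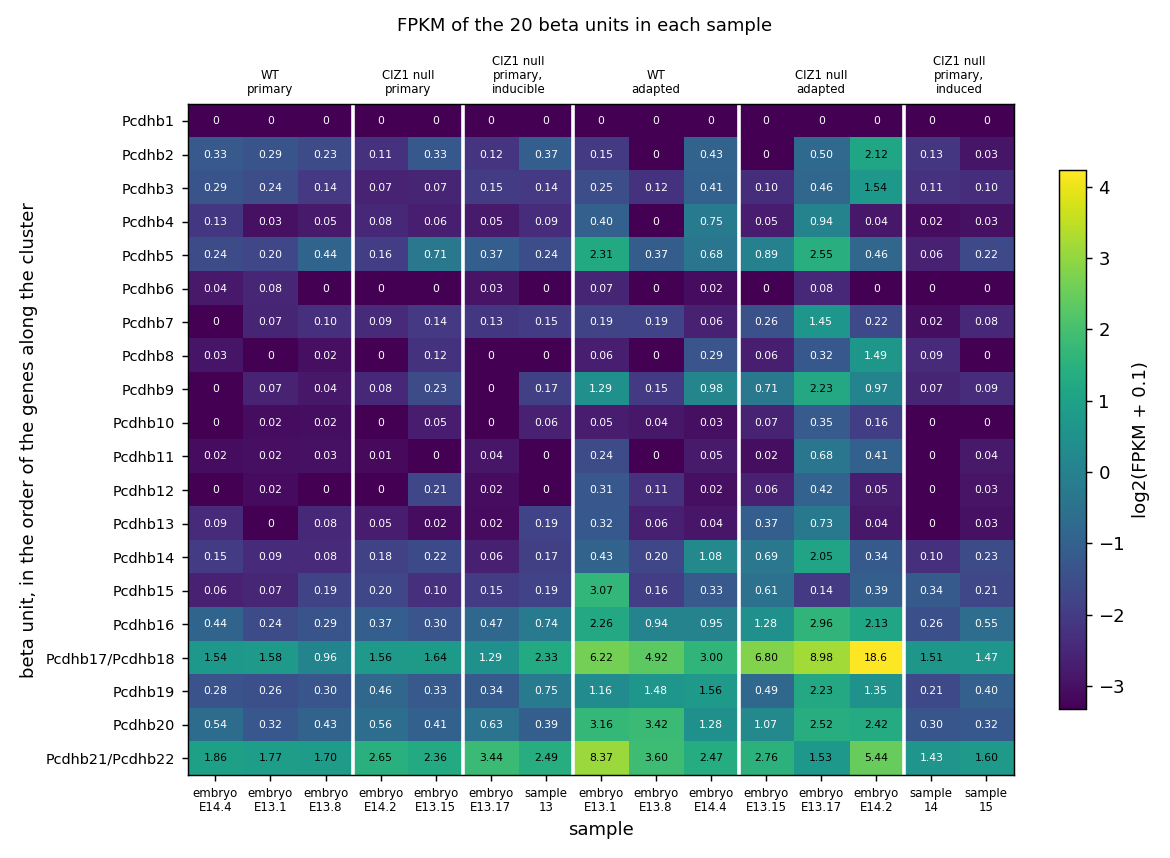
FPKM of each of the 20 beta units (rows, ordered along the cluster) in each of 15 samples (columns, by group and embryo); colour is log2(FPKM + 0.1) and the printed figures are FPKM. Pcdhb16, Pcdhb17/Pcdhb18 and Pcdhb20 are higher in all 6 adapted lines than in all 9 primary samples, and Pcdhb19 than in primary samples 1 to 6, with sample 13 at 0.748 FPKM above CIZ1 null adapted E13.15 at 0.488, while Pcdhb2, Pcdhb3, Pcdhb7, Pcdhb8 and Pcdhb15 stand out in single lines.

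Groups were compared unit by unit in 2 ways. The first counted units above 0 whose groups did not overlap. In WT cells 9 of 19 beta units were higher in all 3 adapted lines than in all 3 primary samples and 0 were lower, against 13.4% higher and 15.2% lower among 36025 units. In null cells 8 of 19 were higher and 0 lower, against 13.6% and 14% of 35400 units. The genotypes share no samples here. Some of these separations rest on very few fragments, whose worth in FPKM is larger in the adapted libraries, which are mostly shallower. Pcdhb10 (1 implied fragment in each WT adapted line against at most 1 in WT primary samples, and as few as 2 against 2 in null cells) and Pcdhb12 (1 against 1 in WT cells) cannot be read as higher. That leaves 7 of 19 units in each genotype. Pcdhb9, Pcdhb14, Pcdhb16, Pcdhb17/Pcdhb18, Pcdhb19 and Pcdhb20 were in both sets, Pcdhb21/Pcdhb22 in the WT set and Pcdhb7 in the null set. The single-gene units among them had more than 3 fragments in every adapted line. Fragments were not computed for Pcdhb17/Pcdhb18 and Pcdhb21/Pcdhb22, which were kept without that check. The share of all units above such a floor was not computed. Pcdhb9 in WT cells (4 against 4) and Pcdhb7 in null cells (5 against 8) were still thinly covered. With all 12 samples together, 4 units separated the 6 adapted lines from the 6 primary samples (Pcdhb16, Pcdhb17/Pcdhb18, Pcdhb19 and Pcdhb20), against 4.71% of 37998 units, and 0 were lower, against 6.05%.

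The second was limma on log2(FPKM + 1), fitted over all units with a mean of at least 1 FPKM in the samples compared, with a call at a Benjamini-Hochberg adjusted p under 0.05. Only 4 members reached that mean in WT cells and 5 in null cells. Members whose primary level is below it enter through their adapted level, so the counts of tested members carry no weight of their own. In each genotype 1 member was called, and it was the same unit, Pcdhb17/Pcdhb18, higher in adapted cells. Over all units 9.55% of 19919 were called in WT cells (2.87% higher) and 4.86% of 20044 in null cells (1.4% higher). The calls were 572 higher and 1330 lower in WT and 280 and 695 in null cells. Quantile normalization, which moved the median of all units from -0.05 to 0.06 and from -0.04 to 0.06, gave 982 and 1081 in WT and 351 and 501 in null cells, and 2 members higher in each. Tested without the filter, the median change of 20 members was 0.26 in WT cells and 0.49 in null cells, with 0.01 over all units in both cases. In null cells 0 members were called without the filter, against 0.91% of 35400 units. There 4 of 20 had an unadjusted p under 0.05, against 20.8% of all units, so the share in both directions together was near the background. All 4 were higher, where 9.31% of all units were higher at that p. In WT cells it was 5 of 20, all higher, against 21.5% of all units (9.24% higher).

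Pcdhb17 and Pcdhb18 lie side by side near the distal end of the beta cluster and were quantified as 1 unit. Its FPKM was 1.54, 1.58 and 0.962 in WT primary and 1.56, 1.64 and 1.29 in null primary samples, ordered as for the beta sum. Adapted lines held 6.22, 4.92 and 3.00 (WT E13.1, E13.8, E14.4) and 6.80, 8.98 and 18.6 (null E13.15, E13.17, E14.2). No adapted line overlapped a primary sample of either genotype, and the 3 null lines were all above the 3 WT lines. The change on the log2(FPKM + 1) scale was 1.25 (SE 0.274, limma adjusted p = 0.0421) in WT cells and 2.21 (SE 0.352, limma adjusted p = 0.0303) in null cells. With the embryo as a block, pairing each adapted line with its own primary population, limma gave adjusted p = 0.0758 and 0.0814, so neither was called. Without a filter the adjusted p was 0.0832 and 0.0589.

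Pcdhb20 was at 0.316 to 0.630 FPKM in primary samples 1 to 6, and at 3.16, 3.42 and 1.28 in the WT and 1.07, 2.52 and 2.42 in the null adapted lines. The groups did not overlap, and the change was 1.29 (SE 0.309, limma adjusted p = 0.0505) in WT and 0.93 (SE 0.285, limma adjusted p = 0.0966) in null cells. The WT value was not called, while with a pseudocount of 0.1 limma gave adjusted p = 0.0475. Pcdhb16 went from 0.240 to 0.475 FPKM in primary samples to 2.26, 0.941 and 0.947 in WT and 1.28, 2.96 and 2.13 in null adapted lines, again without overlap. Its change in null cells was 1.14 (SE 0.275, limma adjusted p = 0.0627). Both units were below 1 FPKM in primary samples 1 to 6 and passed the filter only through their adapted lines. Their p-values are therefore no support of their own, and without a filter neither unit was called in either genotype.

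Pcdhb19 was close to equal within each WT group, at 0.285, 0.257 and 0.303 FPKM in primary and 1.16, 1.48 and 1.56 in adapted cells. Its mean was below the filter in both adaptation comparisons. With all units tested it changed by 0.90 (SE 0.146, limma adjusted p = 0.0425) in WT cells, the only member called there, against 2.74% of 36025 units. In null cells its adapted values were 2.23 (E13.17), 1.35 (E14.2) and 0.488 (E13.15), and the last lay just above the highest value of primary samples 1 to 6 (0.457) and below uninduced sample 13 (0.748).

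Pcdhb21/Pcdhb22, the last unit of the cluster, was the highest beta unit in 8 of 9 primary samples, the exception being induced sample 14. It was 1.86, 1.77 and 1.70 FPKM in WT primary samples and 2.65, 2.36 and 3.44 in null primary samples. In adapted WT lines it was 8.37, 3.60 and 2.47, all above the WT primary range, with a change of 0.94 (SE 0.370, limma adjusted p = 0.147). In adapted null lines it was 2.76, 1.53 and 5.44, on both sides of the primary values, with a change of 0.06 (SE 0.360, limma adjusted p = 0.930).

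**Figure D3:**
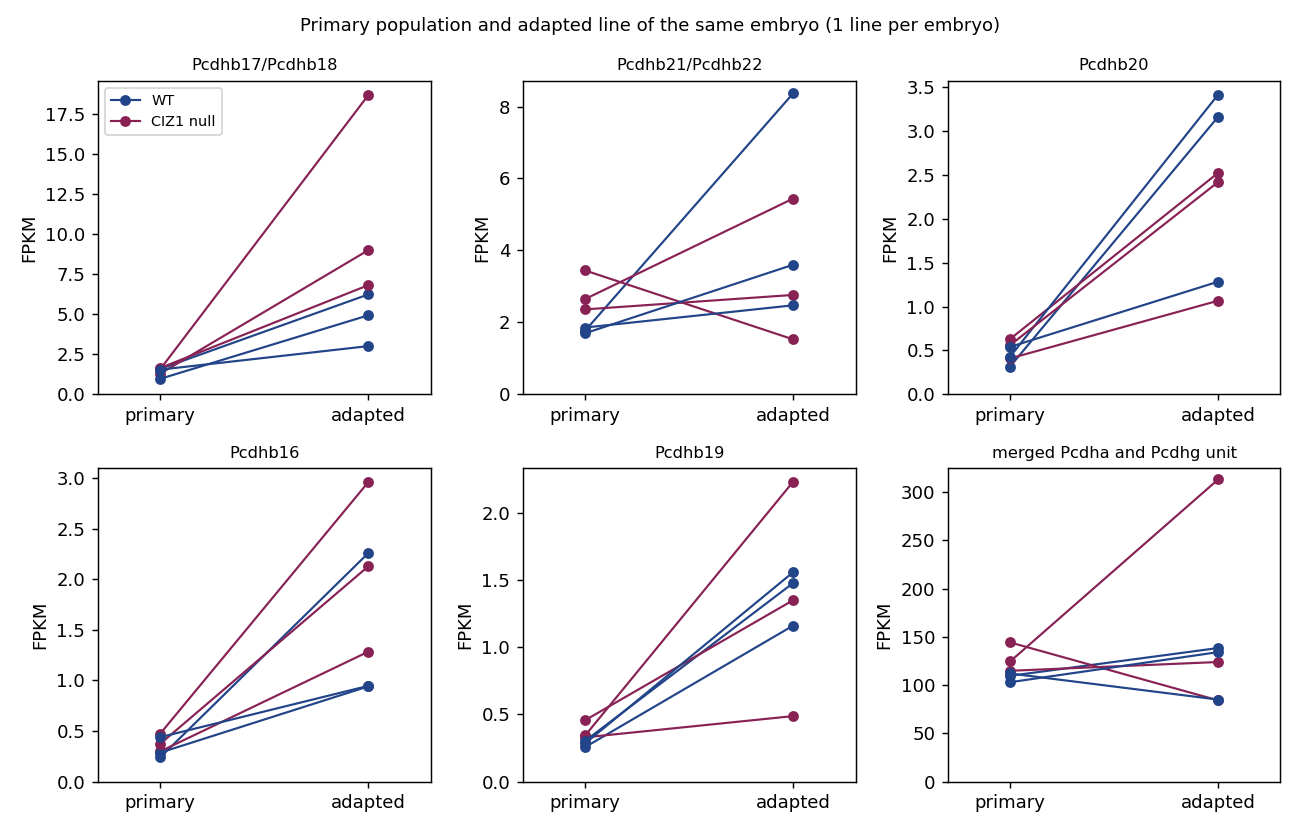
FPKM of 5 beta units and of the merged alpha and gamma unit in the primary population and the adapted line of each of 6 embryos (1 line per embryo, coloured by genotype). Pcdhb17/Pcdhb18, Pcdhb20, Pcdhb16 and Pcdhb19 go up in all 6 embryos, whereas Pcdhb21/Pcdhb22 falls in E13.17 and the merged unit falls in E13.8 and E13.17.

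Adapted lines also differed from each other in which beta units they carried. The following units were picked after their values had been seen, and most are below the filter of the limma fits. Pcdhb15 was 3.07 FPKM in WT adapted E13.1 and at most 0.607 in the other adapted lines, with 0.0606 to 0.204 in primary samples 1 to 6. Pcdhb7 was 1.45 FPKM in null adapted E13.17, about 51.5 implied fragments, and at most 0.265 in the other adapted lines. In null adapted E14.2 the neighbouring units Pcdhb2 (2.12 FPKM) and Pcdhb3 (1.54), and also Pcdhb8 (1.49), were above every other sample, the next adapted line being at 0.495, 0.462 and 0.324. Each of these highs was thus the property of a single population.

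Pcdhb4 was 0.942 FPKM in null adapted E13.17 and 0.754 in WT adapted E14.4, and at most 0.395 in the rest. Pcdhb5 was 2.55 in null adapted E13.17 and 2.31 in WT adapted E13.1, and reached 0.705 in null primary E13.15. Null adapted E13.17 was the highest adapted line for 12 of 19 units, E14.2 for 4, WT E13.1 for 2 and E13.8 for 1. In 7 of 19 units the highest adapted line had at least 2 times the level of the next. The profiles of the 19 units, as log2(FPKM + 0.1), had a Pearson r of 0.806 to 0.966 between pairs of primary samples (36 pairs, induced samples included) and 0.597 to 0.901 between pairs of adapted lines (15 pairs). An adapted line and its own primary population had an r of 0.589 to 0.858 (6 pairs), within the 0.519 to 0.927 found between adapted lines and primary samples at large. These r values are across units of the same libraries and describe likeness only, and low values carry more counting error.

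**Figure D4:**
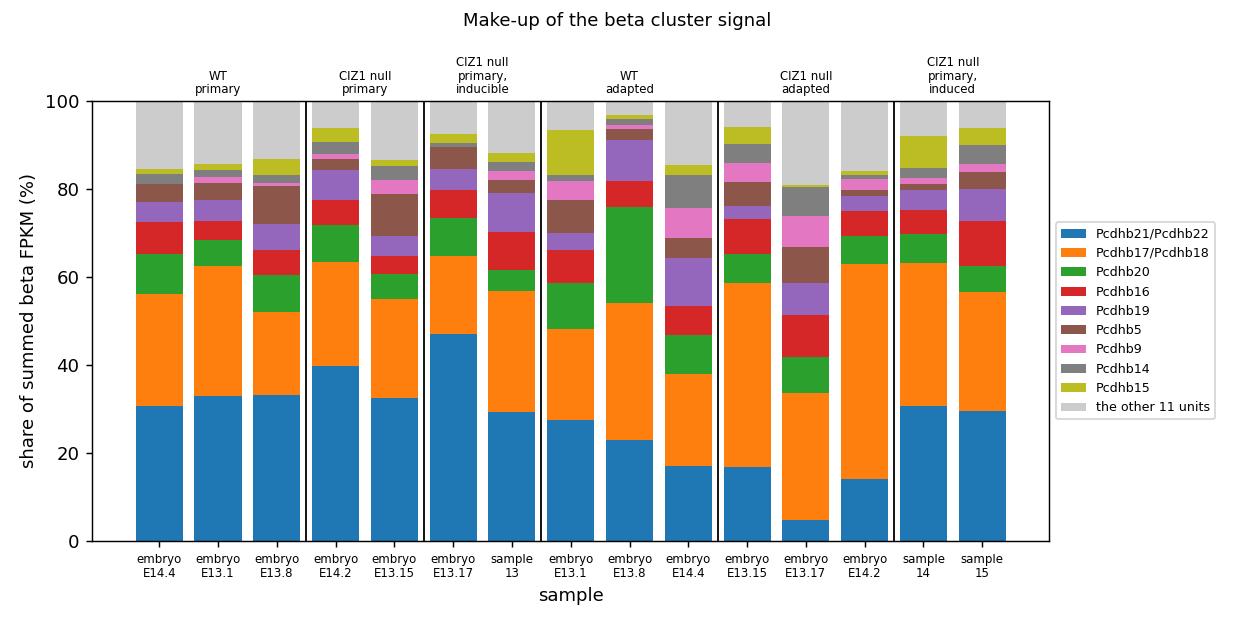
Share of the summed beta FPKM (%) held by 9 named units and by the other 11, in each of 15 samples ordered by group and embryo. Pcdhb21/Pcdhb22 holds 29.4% to 47.1% in the 9 primary samples and 4.9% to 27.6% in the 6 adapted lines, and Pcdhb17/Pcdhb18 reaches 48.8% in CIZ1 null adapted E14.2.

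As shares of the beta sum, Pcdhb21/Pcdhb22 held 29.4% to 47.1% in the 9 primary samples and 27.6%, 22.9%, 17.1%, 16.96%, 4.90% and 14.2% in adapted lines (WT E13.1, E13.8, E14.4, null E13.15, E13.17, E14.2). The ranges did not overlap. Pcdhb17/Pcdhb18 took the lead in 5 of 6 adapted lines, with 41.8% in null E13.15 and 48.8% in null E14.2. The 5 distal units (Pcdhb16, Pcdhb17/Pcdhb18, Pcdhb19, Pcdhb20 and Pcdhb21/Pcdhb22) together held 58.5% to 91.2% of the sum in adapted lines and 69.2% to 84.5% in primary samples. The effective number of units (1 over the sum of squared shares) was 3.70 to 5.80 in primary and 3.65 to 8.75 in adapted samples. Along the cluster, mean level and gene order had a Spearman rho of 0.50 in primary samples 1 to 6 and 0.62 in adapted lines (20 units, a description). The adapted over primary ratio followed gene order less, with rho 0.35 over 19 units.

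The merged alpha and gamma unit was far more abundant than any beta unit and showed no common direction. It was 103, 110 and 112 FPKM in WT primary and 125, 115 and 144 in null primary samples. In adapted lines it was 138, 85.0 and 134 (WT) and 124, 84.2 and 313 (null), so that in each genotype the adapted values lay on both sides of the primary ones. The change was 0.11 (SE 0.221, limma adjusted p = 0.777) in WT and 0.22 (SE 0.467, limma adjusted p = 0.777) in null cells. Null adapted E14.2 carried the null mean. Without that line the null change was -0.31 (SE 0.243, limma adjusted p = 0.465). The unit was 15.8 to 26.1 times the beta sum in the 9 primary samples and 2.71 to 9.30 times in adapted lines, again without overlap. A gene-level FPKM of a unit with 39 symbols adds up many short and long transcripts, so it cannot show which variable exons, C-type exons or constant exons were in use.

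BC037039, a gene annotated on the minus strand at chromosome 18:37805718-37807922, overlaps the start of Pcdhgc3 (37806364). It was 29.1 to 35.1 FPKM in primary samples 1 to 6 and 44.8, 23.9 and 54.6 in WT and 50.9, 28.7 and 117 in null adapted lines. Within each genotype the lowest adapted line was the same for this gene and the merged unit (WT E13.8, null E13.17), and null E14.2 was the highest of all in both. The change was 0.32 (SE 0.308, limma adjusted p = 0.518) in WT and 0.72 (SE 0.477, limma adjusted p = 0.356) in null cells. The library kit was not described as strand-specific, so reads of the gene and of Pcdhgc3 cannot be told apart. BC037039 and Gm26672, a minus-strand transcript in the gamma cluster, lie outside the naming rule and were picked from the 25 further units of the locus. Gm26672 fell by 1.48 (SE 0.246, limma adjusted p = 0.0332) in null cells on adaptation, from 1.97 to 3.24 FPKM to 0.128 to 0.419. With the embryo as a block limma gave adjusted p = 0.102, so it was not called. In WT adapted lines it was 0.409, 8.03 and 3.01 FPKM, on both sides of the WT primary values of 3.50 to 4.33.

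Loss of CIZ1 in primary cells gave no limma call among the few members tested. That says little about the clusters, since over all units only Ciz1 was called. The paper reported many more affected units with Cuffdiff on the same populations. Of 3 members tested 0 were called by limma, where 1 of 19566 units was called over all (0.00511%) and that was Ciz1. At an unadjusted p under 0.05 there was 1 member, Pcdhb21/Pcdhb22, against 6.26% of all units. It was higher in null primary cells by 0.45 (SE 0.166, limma adjusted p = 0.776), and its 3 null values were above the 3 WT values. The merged unit differed by 0.23 (SE 0.120, limma adjusted p = 0.815), 115 to 144 against 103 to 112 FPKM, and Pcdhb17/Pcdhb18 by 0.09 (SE 0.188, limma adjusted p = 0.932). Of 19 beta units 2 were higher without overlap (Pcdhb19 and Pcdhb21/Pcdhb22) and 0 lower, against 5.29% and 4.67% of 35288 units. The beta sum was 1.29-fold higher in null primary cells, without overlap of 3 and 3 samples. Part of that lay in Pcdhb21/Pcdhb22, with means of 1.77 FPKM in WT and 2.82 in null primary samples. The sum over single-gene units was 1.17-fold and the median beta unit 1.25-fold higher, and for both the groups overlapped. Of the marker lists, the 9 neuronal genes separated the same samples the other way, at 3.28 to 5.57 FPKM summed in null and 6.87 to 15.4 in WT primary samples, and epithelial markers overlapped (2.10 to 18.9 against 2.16 to 5.52). Their part in this was not tested.

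In adapted cells 8 members were tested for the loss of CIZ1 and 0 were called by limma, with Ciz1 again the 1 unit called of 19976 (0.00501%). Only Pcdhb17/Pcdhb18 had an unadjusted p under 0.05, against 4.02% of all units: it was 2.43-fold higher in null lines, a change of 1.05 (SE 0.411, limma adjusted p = 0.998). Pcdhb21/Pcdhb22 differed by -0.43 (SE 0.491, limma adjusted p = 0.998) and Pcdhb16 by 0.40 (SE 0.349, limma adjusted p = 0.998). Of 19 beta units 3 were higher in all null lines (Pcdhb7, Pcdhb10 and Pcdhb17/Pcdhb18, the first 2 on as few as 5 and 2 implied fragments in a null line) and 0 lower, against 3.66% and 3.32% of 35435 units. The genotype comparisons reuse the sample groups of the adaptation comparisons, so their values are not independent.

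The difference of adaptation between genotypes was tested as an interaction. Of 5 members 0 were called by limma, as were 0 of 20046 units (0.0%), with 0 members and 928 units (4.63%) at an unadjusted p under 0.05. Pcdhb17/Pcdhb18 changed by 0.96 more in null than in WT cells (SE 0.463, limma adjusted p = 0.996), Pcdhb21/Pcdhb22 by -0.88 (SE 0.545, limma adjusted p = 0.996) and Pcdhb20 by -0.35 (SE 0.417, limma adjusted p = 0.999). With standard errors of this size, differences between genotypes of about 1 on the log2 scale were not resolved.

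**Figure D5:**
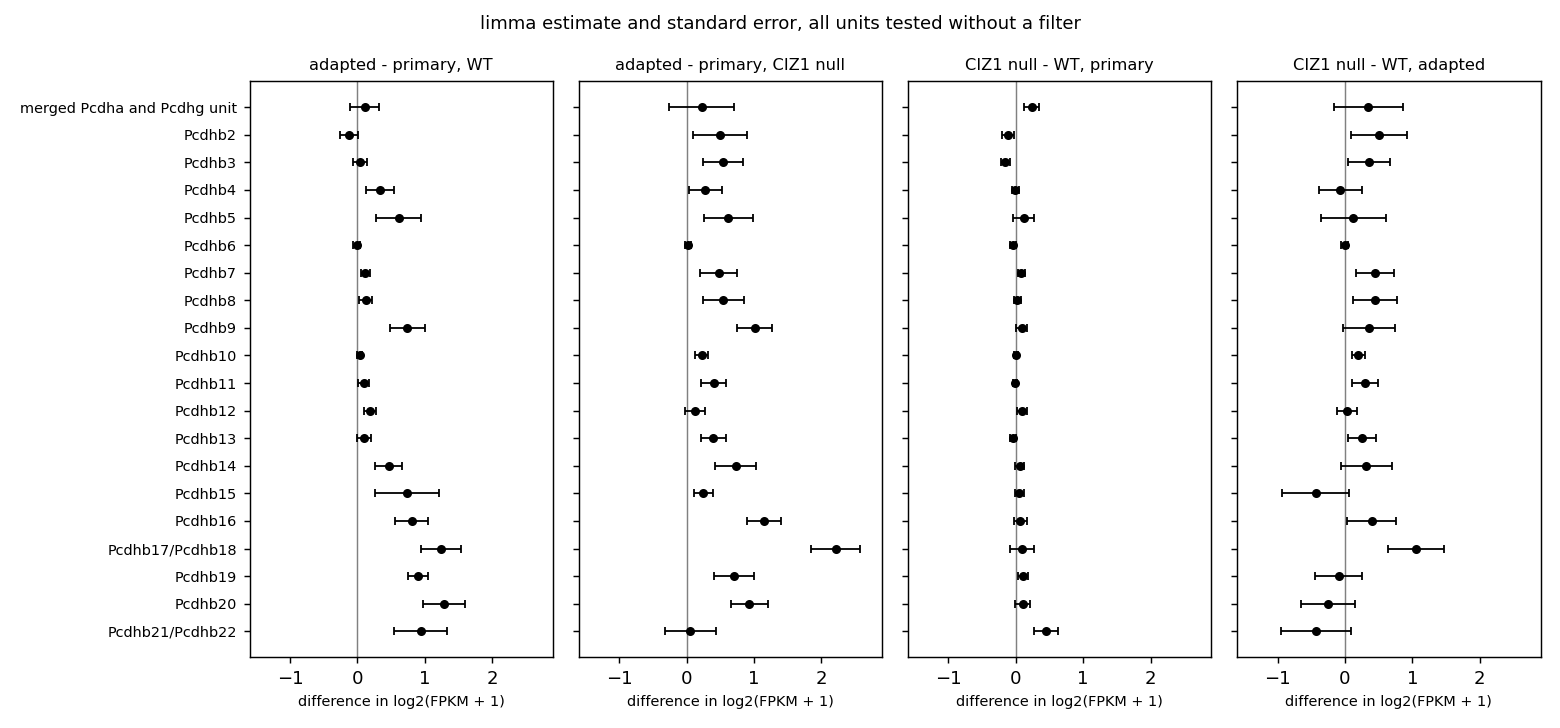
Difference in log2(FPKM + 1) with its limma standard error for the merged alpha and gamma unit and the 19 beta units above 0, in 4 comparisons fitted without a filter. The adaptation panels lie mostly to the right of 0, led by Pcdhb17/Pcdhb18 at 2.21 in CIZ1 null cells, while the primary null against WT panel stays close to 0.

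Induction of GFP-CIZ1 in null primary cells was compared in 2 and 2 samples. Sample 6 (E13.17), 1 of the 2 uninduced samples, was also a null primary sample in the comparison for loss of CIZ1. The directions of these 2 comparisons are therefore not independent. Of 3 members tested 0 were called by limma, with 0 at an unadjusted p under 0.05 (1.76% of all units), and 2 of 19768 units were called over all (0.0101%), Ciz1 among them with a change of 7.49 (SE 0.349, limma adjusted p = 0.0102). The beta sum was 7.31 and 8.48 FPKM without inducer and 4.66 and 5.43 with it, 0.639 of the uninduced mean. Pcdhb21/Pcdhb22 was 3.44 and 2.49 without and 1.43 and 1.60 with inducer, a change of -0.65 (SE 0.325, limma adjusted p = 1). The merged unit changed by -0.23 (SE 0.264, limma adjusted p = 1) and Pcdhb17/Pcdhb18 by -0.15 (SE 0.355, limma adjusted p = 1). Of 19 beta units 6 were lower without overlap and 1 higher, Pcdhb15, against 10.3% and 10.5% of 33825 units. Pcdhb3, Pcdhb4, Pcdhb5, Pcdhb7, Pcdhb20 and Pcdhb21/Pcdhb22 were the 6. Pcdhb3, Pcdhb4 and Pcdhb7 had 3 implied fragments or fewer in an uninduced sample, and without them 3 were lower. The share of all units lower above that floor was not computed. Pcdhb5 (as few as 5 implied fragments uninduced against up to 8 induced) and Pcdhb20 (8 against 15) were thinly covered. For Pcdhb21/Pcdhb22 no fragments were computed. Of the induced beta sums, 4.66 lay below and 5.43 within the WT primary range (5.11 to 6.04). The fibroblast markers summed to 7611 and 8942 FPKM in the induced and 11470 and 11630 in the uninduced samples, and their part in this was not tested. There was no treatment of cells without the transgene, so doxycycline and GFP-CIZ1 cannot be told apart.

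Genes that act on promoter choice and looping at these clusters were followed as a list of 15 symbols. Of 26 units tested, 8 rose and 0 fell with adaptation in WT cells, where 2.87% of all units were called higher: both units of Rad21 (1.21 and 1.16) and both of Pds5b, and Smc3, Nipbl, Ctcf and Stag2. Rad21, Smc3 and Stag2 encode cohesin subunits, Nipbl its loader and Pds5b a regulator of its release. One unit of Ctcf, which encodes the insulator protein, rose by 0.96 (SE 0.229, limma adjusted p = 0.0491). In null cells 1 of 25 rose, against 1.4% of all units: a unit of Nipbl (0.82, SE 0.167, limma adjusted p = 0.0475), and 0 fell. There the same Ctcf unit changed by 0.72 (limma adjusted p = 0.0570) and the Rad21 units by 0.49 and 0.48. The median change over the list was 0.61 in WT and 0.44 in null cells, with -0.05 and -0.04 over all units tested, and 0 of the list's units were called for the interaction. With quantile normalization all of these called units kept their direction and their call. With the embryo as a block 0 of the list's units were called in either genotype, where 2.51% of all units were called in WT and 0.0499% in null cells. Units that share a symbol can lie on opposite strands and then hold the same reads.

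Silencing and DNA methylation factors, and the lists that follow, are set against 9.55% of all units called in WT and 4.86% in null cells. Of 20 units of these factors in WT cells 2 rose (Setdb1 by 0.76 and the unit of Lrif1 by 0.999). The 1 that fell, by 1.73, was a unit of Trim28, which encodes the co-repressor KAP1. Of 19 in null cells Lrif1 rose by 1.14 and the same Trim28 unit fell by 1.83, while Setdb1 changed by 0.36 (SE 0.166, limma adjusted p = 0.209). The other Trim28 unit changed by only -0.38 in WT and -0.58 in null cells and was not called. A unit of Smchd1, a silencer of these clusters, changed by 0.39 in WT cells (SE 0.208, limma adjusted p = 0.252), and its other unit by 0.60, also without a call. Of the non-clustered protocadherins, Pcdh9 (-1.84) and Pcdh19 (-2.71) fell in WT cells and Pcdh19 (-2.22) in null cells, of 6 units tested in each, so none of the called ones shared the direction of the beta cluster. Cytoplasmic partners and proteases of protocadherins gave 0 calls among 28 units in WT cells and 2 falls in null cells, Ptk2b, a focal adhesion kinase that protocadherins bind, and Wasf2, a WAVE subunit. Of 12 units of classical cadherins and catenins both units of Jup, which encodes plakoglobin, fell in each genotype. With the embryo as a block the calls that remained among these lists were Pcdh9, Pcdh19 and 1 unit of Jup in WT cells, and 0 in null cells. Neither loss of CIZ1 nor induction gave a call in any of these lists.

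Markers of other cells also moved with adaptation, and their part in the beta values was not tested. Des, a muscle marker, fell in both genotypes, from 13.3 to 34.1 FPKM in primary samples 1 to 6 to 0.066 to 0.906 in adapted lines, while Myod1 was listed at 0 throughout. Fibroblast markers gave 4 falls in null cells (Col1a1, Col1a2 and both units of Vim) and 0 calls in WT cells. The median change over 16 units was -1.06 in null and -0.92 in WT cells. Not every marker went down: in null cells the units of Dcn changed by 2.68 and 2.49 and those of Pdgfra by 0.47 and 0.54, without a call. The 9 neuronal genes that matched a unit summed to 3.28 to 15.4 FPKM in primary samples 1 to 6, 1.05 to 37.8 in WT adapted and 0.222 to 1.38 in null adapted lines. The WT maximum was Map2 in E13.1 (37.0 FPKM). The defining neuronal genes Rbfox3 and Elavl3 were listed at 0 in all 15 samples and Snap25 and Dcx were at most 0.0665 and 0.0604 FPKM. The 7 glial and neural crest markers summed to 0.744 to 11.85 FPKM in primary samples 1 to 6 and 0.546 to 1.68 in adapted lines. Sox10 was 0.0597 to 7.67 FPKM in those primary samples, highest in null E13.15, and was listed at 0 in all 6 adapted lines. Epithelial markers summed to 2.10 to 18.9 FPKM in primary samples 1 to 6 and at most 1.38 in adapted lines, myeloid markers to 2.99 to 16.6 and 1.81 to 4.25, and endothelial markers to 1.27 to 2.19 and 0.363 to 4.88.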

How the data were processed

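Per the labels, poly(A) RNA was sequenced from 15 samples, and the authors trimmed reads with cutadapt 1.8.3, aligned them to GRCm38 with HISAT2 2.0.5 and assembled and quantified units with Cufflinks tools. The deposited values are FPKM per unit from Cuffnorm, with no counts, so the depth in reads is unknown and relative depth was read from the steps between low values. A further deposited table from Cuffdiff 2.2.1 holds log2 fold changes, p-values and q-values of 4 comparisons and was not used.

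Units were compared with limma 3.58.1 (R 4.3.3, trended prior) on log2(FPKM + 1), with a mean of at least 1 FPKM and Benjamini-Hochberg adjustment over all units. The log2 scale understates changes of low units. A call was an adjusted p under 0.05. Levels were summarised with Python 3.11.15, NumPy 2.4.6, pandas 2.3.3 and SciPy 1.17.1 and plotted with Matplotlib 3.10.9, and the script was tested on simulated data. Groups came from sample titles, since 1 source field carried another sample's number. Embryo names of 12 samples came from a supplementary table of the study whose values for 1038 or 904 units were identical to 1 sample each. Primary and adapted populations thus pair by embryo, and the correlation of their deviations from group means was -0.019 to 0.211. Members, gene lists and alternatives were chosen with earlier results of these data known. Named were the 4 highest units of each cluster, called members, the leading unit of each sample, the 3 smallest p-values per comparison, C-type genes and units listing several members. Genes picked outside that rule are said to be. Coordinates are from GENCODE for GRCm38. Alternatives were the pseudocount, filter, quantile normalization, sample sets, an embryo block and leaving out each library. Implied fragments (FPKM times length and relative depth, for single-gene beta units only) and a floor of 3 of them, and the block for the gene lists, were added after seeing the data.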

Additional observations from a re-analysis of the deposited data

How the results depend on the processing

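With 1 member called in each adaptation comparison, the counts rested on few libraries. In WT cells 2 were called with a pseudocount of 0.1, with quantile normalization, with all 4 groups in 1 fit and with a pseudocount of 0.1 and a mean of at least 0.1 FPKM (chosen after seeing the data), and 0 with the embryo as a replicate block (pairing). At a mean of at least 5 FPKM 0 were called, but only the merged unit was tested there, so Pcdhb17/Pcdhb18 could not be called. Leaving out single libraries gave 0 to 2, with 2 only without adapted E14.4 and 0 without each of the other 5. Without a filter, or at 0.1 FPKM, the 1 called was Pcdhb19 instead. In null cells 2 were called with quantile normalization and with all 4 groups in 1 fit, and 0 without a filter, with the embryo block or with only the 2 samples labelled CIZ1 -/- primary. Leaving out single libraries gave 0 to 3, with 3 without adapted E13.15 and 0 without adapted E14.2 or any primary library. The block left 499 of all units called in WT and 10 in null cells, against 1902 and 975, and no filter left 988 and 322. Of beta units lower on induction, 3 rather than 6 remained with a floor of 3 fragments in both uninduced samples (chosen after seeing the data). Pcdhb21/Pcdhb22 was kept there without a fragment count, and the share of all units at that floor was not computed. No paired analysis of induction was possible because the embryo of each induced sample was not established. The other 4 comparisons had 0 members called under every alternative run.

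The log2 fold of the beta sum over the 6 leave-one-out sets was 1.46 to 2.07 (WT adaptation), 1.74 to 2.29 (null adaptation), 0.311 to 0.435 (primary loss), 0.234 to 0.920 (adapted loss) and -0.760 to -0.535 (induction, 4 sets). With single-gene units alone the primary loss value was 0.222, and the groups overlapped. Leaving out a library turned the sign of these uncalled changes, whose ranges were -0.0177 to 0.331 (merged unit, WT adaptation), -0.314 to 0.627 (merged, null adaptation), -0.298 to 0.377 (Pcdhb21/Pcdhb22, null adaptation), -0.0381 to 0.160 (Pcdhb17/Pcdhb18, primary loss), -0.187 to 0.754 (merged, adapted loss), -0.138 to 0.397 (Pcdhb5, adapted loss), -0.356 to 0.204 (Pcdhb19, adapted loss), -0.419 to 0.122 (Pcdhb17/Pcdhb18, induction) and -0.420 to 0.521 (merged, interaction). Of 375 alternative values for single members, 339 kept direction and side of the threshold, 9 gained a call, 16 lost one and 11 changed sign. The causes were not tested.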

Other observations

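Taf7, a gene for a transcription factor IID subunit, lies between the beta and gamma clusters on the minus strand (18:37640491-37644204). One of its 3 units was 16.8 (E14.4), 25.6 (E13.1) and 7.10 FPKM (E13.8) in WT primary cells and was listed at 0 in all 3 WT adapted lines. In null cells the same unit was 1.90, 1.92 and 6.84 FPKM in primary samples and 18.1, 5.25 and 9.73 in adapted lines. It was also listed at 0 in samples 13 and 14 and was 4.68 FPKM in sample 15, while its other units were between 0.341 and 1.87 FPKM in all 15 samples. This unit was picked after its values had been seen.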
